A study of Homo sapiens with 8 samples.

Results

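The mitochondrial ribosomal proteins are the nuclear-encoded building blocks of the ribosome inside mitochondria. Members were the rows whose gene symbol is MRPL or MRPS followed by a number and, at most, 1 letter from A to C, with pseudogenes left out and with at least 1 FPKM (fragments per kilobase of gene model, scaled to sequencing depth) in at least 2 libraries. All 78 rows with such a symbol passed, of 60592 rows in the files and of 12063 genes that passed the same filter and were tested. The lowest value of any member in any library was 3.499 FPKM, so no member lay near the threshold. By their place in the ribosome 26 belong to the small subunit and 51 to the large subunit, among them MRPS18A and MRPS30, whose symbols name the small one. The remaining gene, MRPS36, carries a ribosomal symbol but its protein is now assigned to the oxoglutarate dehydrogenase complex (also named KGD4).

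The mitochondrial ribosome reads only the mRNAs of mitochondrial DNA, which encode core subunits of the respiratory chain and of ATP synthase. Its RNAs come from mitochondrial DNA, whereas its proteins are made in the cytosol and imported. Compared with bacterial ribosomes it holds less RNA and more protein, and many of its proteins have no bacterial counterpart.

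RNA was sequenced from WSU-DLCL2, an established human line of diffuse large B-cell lymphoma. Cells overexpressing FDX1 (FDX1-OE), the ferredoxin that hands electrons to enzymes of the mitochondrial matrix, were compared with control cells, labelled wild type. Both were kept for 48 h with elesclomol (ES), a copper ionophore, at 15 nM or with DMSO, its solvent. The 4 groups were FDX1-OE with ES, control with ES, FDX1-OE with DMSO and control with DMSO, with 2 libraries each. The overexpression construct, and whether each cell population was 1 clone, are not given in the sources used here. The labels leave unsaid whether replicate libraries were grown separately, so p-values measure only the spread between these libraries, which may be technical.

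FDX1 itself had 60.7 and 59.4 FPKM in FDX1-OE ES libraries, 9.88 and 10.0 FPKM in control ES libraries, 59.8 and 56.0 FPKM in FDX1-OE DMSO libraries, and 10.8 and 10.4 FPKM in control DMSO libraries, as labelled. The FPKM of all genes summed to 408018 and 403024 in the FDX1-OE ES libraries and to between 445716 and 451027 in the other 6. Absolute depth is unknown. The 6 B-cell markers summed to between 1356 and 1498 FPKM per library. Markers of T, NK, myeloid, epithelial and fibroblast cells summed to at most 1.64 FPKM per list and library, and CD3D, CD3G, CD2, GNLY and KLRD1 were listed at 0 throughout. Those small sums were highest in the FDX1-OE ES libraries, and their part in the results was not tested.

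The members were transcribed at unequal levels. Mean FPKM over the 8 libraries ran from 4.70 to 150 with a median of 34.99 over the 78 genes. MRPL4, the counterpart of a bacterial protein near the peptide exit tunnel, was highest at 150 FPKM, followed by MRPL37 at 133 FPKM, MRPL12 at 126 FPKM, MRPS34 at 119 FPKM and MRPS24 at 103 FPKM. MRPL12 forms the stalk that recruits translation factors, MRPS24 is the counterpart of bacterial S3, and MRPL37 and MRPS34 have no bacterial counterpart. At the low end stood MRPL42 at 4.70 FPKM, MRPL50 at 8.32 FPKM and MRPL19 at 8.52 FPKM. The 2 leading genes moved in opposite directions with ES, as described further on.

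The members' promoters were searched for words bound by factors tied to nuclear genes of mitochondria. RefSeq promoter windows (GRCh38.p14, 250 bases before to 50 after the gene start) were matched to 69 of the 78 members by symbol. The ETS core CCGGAAG, read by factors such as GABPA, was found on either strand in 29 of the 69 windows (42%), against 22.1% of 8768 genes tested with a window and 10.3% of all 35116 windows. The YY1 word AAGATGG was in 23 windows (33.3%), against 8.57% of genes tested and 5.84% of all windows. At least 1 of these words stood in 43 of the 69 windows (62.3%, against 28.6% of genes tested), and in no member did an ETS core and a YY1 word share bases. The NRF1 word GCGCATG was in 7 windows (10.1%, against 8.3% of genes tested), the E-box CACGTG in 6 (8.7%, against 10.6%) and the TATA word TATAAA in 2 (2.9%, against 5.17%). Each match is a description of letters and not of binding. Matches after the gene start were counted too. The YY1 word contains ATG, and matches at a start codon were not separated from the others.

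The following stretches of 27 bases show the ETS core or YY1 word, in capitals, in members whose levels changed with ES in FDX1-OE cells. They are written 5′ to 3′ in the direction of the word, from RefSeq, GRCh38.p14, with the strand of the gene given beside the coordinates. In 4 of the 5 stretches around a YY1 word, those of MRPL36, MRPS24, MRPS12 and MRPL45, the word is followed by a C, which the search did not ask for. The YY1 words of MRPS24 and MRPL45 begin after the gene start, at base 20 and base 14. Those of MRPL36, MRPS12 and MRPL49 lie before it.
MRPL36 (chr5:1799855-1799881, minus, YY1): gccaggaaggAAGATGGcggcgggggg
MRPS24 (chr7:43869482-43869508, minus, YY1): cgcttggcccAAGATGGcggcctccgt
MRPS12 (chr19:38930723-38930749, plus, YY1): ttcccggtccAAGATGGctgcgtccat
MRPS12 (chr19:38930929-38930955, plus, ETS core): cggatagcgcCCGGAAGaggctagaag
MRPS21 (chr1:150293840-150293866, plus, ETS core): gttctcactaCCGGAAGcggaaattac
MRPL53 (chr2:74472736-74472762, minus, ETS core): cagccggcggCCGGAAGtctatcccgc
MRPL49 (chr11:65122105-65122131, plus, YY1): agctaccgcgAAGATGGagtcgagaaa
MRPL45 (chr17:38297171-38297197, plus, YY1): ttgcgggaacAAGATGGcagcccccat

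MRPL4 and MRPL37, the members with the highest mean levels, held neither word. Their 250 bases before the gene start are shown because both carry a pair of reversed CCAAT words (ATTGG, in capitals) 4 bases apart, while their levels moved in opposite directions. CCAAT was added to the search after the sequences were seen. It stood in 20 of the 69 member windows (29%), against 38.1% of genes tested and 34.6% of all windows. In MRPL37 the capitals also mark an E-box (CACGTG).
MRPL4 (chr19:10251701-10251950, plus): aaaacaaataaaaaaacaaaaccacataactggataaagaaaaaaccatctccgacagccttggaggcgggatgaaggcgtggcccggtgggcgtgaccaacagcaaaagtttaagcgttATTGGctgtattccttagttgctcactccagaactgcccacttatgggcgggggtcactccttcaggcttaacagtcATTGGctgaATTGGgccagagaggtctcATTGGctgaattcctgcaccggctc
MRPL37 (chr1:54199917-54200166, plus): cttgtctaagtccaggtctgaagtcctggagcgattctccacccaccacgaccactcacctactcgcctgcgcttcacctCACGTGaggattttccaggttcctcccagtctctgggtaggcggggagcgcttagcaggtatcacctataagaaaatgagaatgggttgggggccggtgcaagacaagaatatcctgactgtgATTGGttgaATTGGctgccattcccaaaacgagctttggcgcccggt

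In DMSO, no member passed the threshold between FDX1-OE and control cells. limma called 0 of 78 members higher and 0 lower (adjusted p below 0.05), where 0.00829% of all genes tested were called higher and 0% lower. At an unadjusted p below 0.05 there was 1 member, MRPS18B, with 46.6 and 45.6 FPKM in FDX1-OE libraries against 41.9 and 40.7 FPKM in control libraries (log2 fold change 0.16, adjusted p = 0.999). Both FDX1-OE libraries lay above both control libraries in 10 members (19.5% of all genes tested) and below them in 16 (also 19.5%). The members' median log2 fold change was -0.01, beside 0.00 over all genes tested. Summed over the members, FPKM reached 3375 and 3402 in FDX1-OE DMSO libraries and 3421 and 3388 in control DMSO libraries, and these ranges overlapped.

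With ES in FDX1-OE cells more members fell than rose. Against DMSO in the same cells, 32 of 78 members fell and 12 rose by limma (13.7% and 47.1% of all genes tested, 60.8% in either direction), and 34 were not called. The members' median log2 fold change was -0.19, beside 0.25 over all genes tested, and 68 of the 78 members lay below the median of all genes. FDX1-OE ES libraries had 11868 and 12047 genes at 1 FPKM or more, against 10815 to 11320 in the others. Some of all genes tested may therefore have passed the filter through the FDX1-OE ES libraries alone, which favours rises among them. With a filter of 5 FPKM the median of all genes was 0.19, with 45% rising and 17.9% falling, and the members' values were unchanged. Both ES libraries lay below both DMSO libraries in 43 members (20.1% of all genes tested) and above them in 16 (58.9%). The split depends on the scaling: 57 fell and 1 rose (27.5% and 24.9% of all genes tested) when the FPKM were put on a median-ratio scale, which moves the median of all genes to -0.01, and 26 fell and 21 rose (9.02% and 58.8% of all genes tested) when FPKM totals were made equal, which moves it to 0.37. Relative to the median of all genes, the members' median was lower by 0.44 here and lower by 0.24 to 0.48 across 22 alternative settings. Without FDX1-OE DMSO replicate 1 the members' median was -0.2035, beside 0.2506 over all genes tested.

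**Figure D1:**
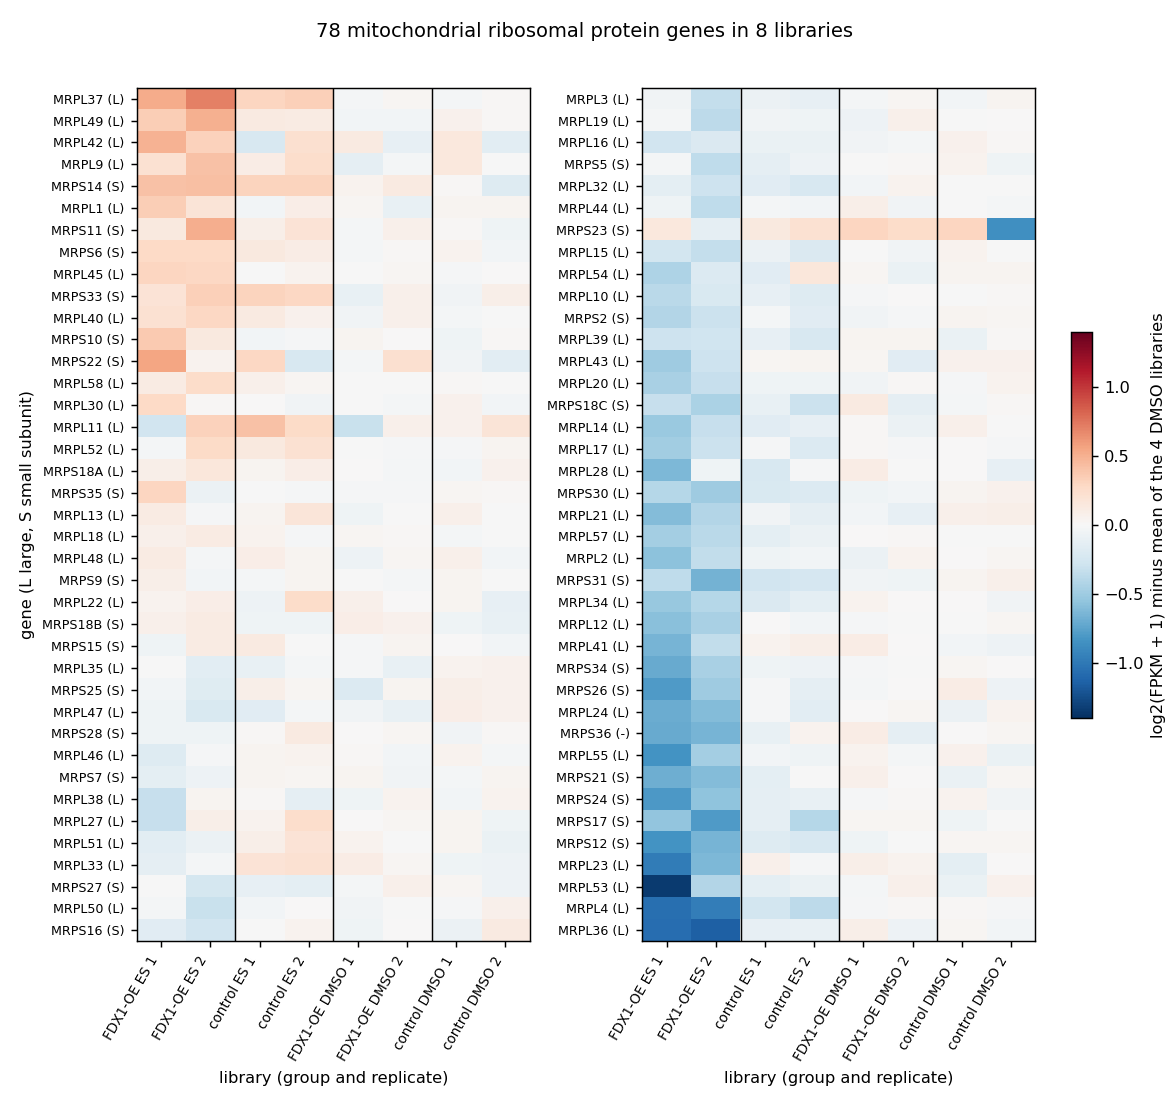
Each row is 1 of the 78 genes, ordered by the log2 fold change of ES over DMSO in FDX1-OE cells from the largest rise (top left) to the largest fall (bottom right), and each column is 1 library. Colour is log2(FPKM + 1) minus the mean of the 4 DMSO libraries: the 2 FDX1-OE ES libraries hold the strongest colours, and MRPS23 is low in 1 control DMSO library.

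Among large subunit genes, 22 of 51 fell and 7 rose (13.7% and 47.1% of all genes tested). MRPL36, a small protein with a bacterial counterpart, had 26.1 and 24.6 FPKM in FDX1-OE ES libraries, against 58.8 and 52.9 FPKM in FDX1-OE DMSO libraries and 51.2 and 51.5 FPKM in control ES libraries. Both FDX1-OE ES libraries lay below all 6 others, and the fall against DMSO was -1.11 on the log2 scale (SE 0.07, adjusted p = 1.8e-05). MRPL4 had 87.2 and 92.8 FPKM with ES in FDX1-OE cells, against 180 and 184 FPKM with DMSO. Its fall was -1.01 (SE 0.06, adjusted p = 1.51e-05), with no overlap between the groups, and it moved the most abundant member below MRPL37 in both FDX1-OE ES libraries. MRPL53, which has no bacterial counterpart, had 15.7 and 30.9 FPKM with ES, against 40.4 and 43.4 FPKM with DMSO. The ES libraries of MRPL53 differed from each other more than the DMSO libraries did. Its fall of -0.89 (SE 0.24, adjusted p = 0.0125) lost its call in 2 of 22 alternatives. These were no filter on low values and leaving out FDX1-OE DMSO replicate 2. MRPL23, whose bacterial counterpart lines the exit of the peptide tunnel, had 5.51 and 7.33 FPKM with ES, against 12.6 and 12.3 FPKM with DMSO (log2 fold change -0.87, SE 0.12, adjusted p = 0.000478).

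Among small subunit genes, 9 of 26 fell and 5 rose (13.7% and 47.1% of all genes tested). MRPS12, a protein of the decoding centre, had 21.3 and 24.5 FPKM with ES in FDX1-OE cells, against 37.4 and 38.8 FPKM with DMSO. Both ES libraries lay below both DMSO libraries, a fall of -0.71 (SE 0.08, adjusted p = 0.000146). MRPS17, the counterpart of a bacterial rRNA-binding protein, had 13.1 and 10.95 FPKM with ES, against 20.2 and 20.1 FPKM with DMSO, a fall of -0.71 (SE 0.11, adjusted p = 0.000857). MRPS24 had 66.4 and 78.5 FPKM with ES, against 115 and 118 FPKM with DMSO, and MRPS21, another gene with a bacterial counterpart, had 22.3 and 23.6 FPKM, against 38.2 and 36.5 FPKM. These last 2 genes fell by 0.68 each on the log2 scale (adjusted p = 0.000249 for MRPS24 and 0.000177 for MRPS21), and their groups did not overlap. MRPS36, the gene outside the ribosome, fell as well, with 6.88 and 7.15 FPKM under ES against 12.8 and 10.7 FPKM under DMSO (log2 fold change -0.67, adjusted p = 0.000669).

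The members that rose with ES in FDX1-OE cells were led by MRPL37 and MRPL49, large subunit proteins without a bacterial counterpart. MRPL37 had 159 and 181 FPKM with ES, against 109 and 113 FPKM with DMSO. Both ES libraries lay above both DMSO libraries, a rise of 0.61 (SE 0.07, adjusted p = 0.000208), and MRPL37 was the 1 member that still rose on the median-ratio scale. MRPL49 had 47.7 and 53.2 FPKM with ES, against 36.3 and 36.2 FPKM with DMSO (log2 fold change 0.46, SE 0.07, adjusted p = 0.00063). Next came MRPL9 with 49.3 and 56.4 FPKM, against 38.7 and 41.5 FPKM (0.39), MRPS14 with 16.6 and 16.8 FPKM, against 12.7 and 13.5 FPKM (0.33), and MRPL1 with 20.5 and 18.2 FPKM, against 16.2 and 14.7 FPKM (0.30). MRPL9, MRPS14 and MRPL1 are counterparts of bacterial proteins of the same number, and the groups of each did not overlap. MRPS6 rose by 0.29, MRPL45, which ties the ribosome to the inner membrane, rose by 0.29, and MRPS11 rose by 0.30 with an adjusted p of 0.04999 that was above 0.05 in 16 of 22 alternatives. On the median-ratio scale none of the named genes that rose passed the threshold other than MRPL37. Their log2 fold changes there were 0.18 for MRPL49, 0.10 for MRPL9, 0.059 for MRPS14, 0.031 for MRPL1, 0.024 for MRPS11, 0.0093 for MRPS6 and 0.0078 for MRPL45.

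**Figure D2:**
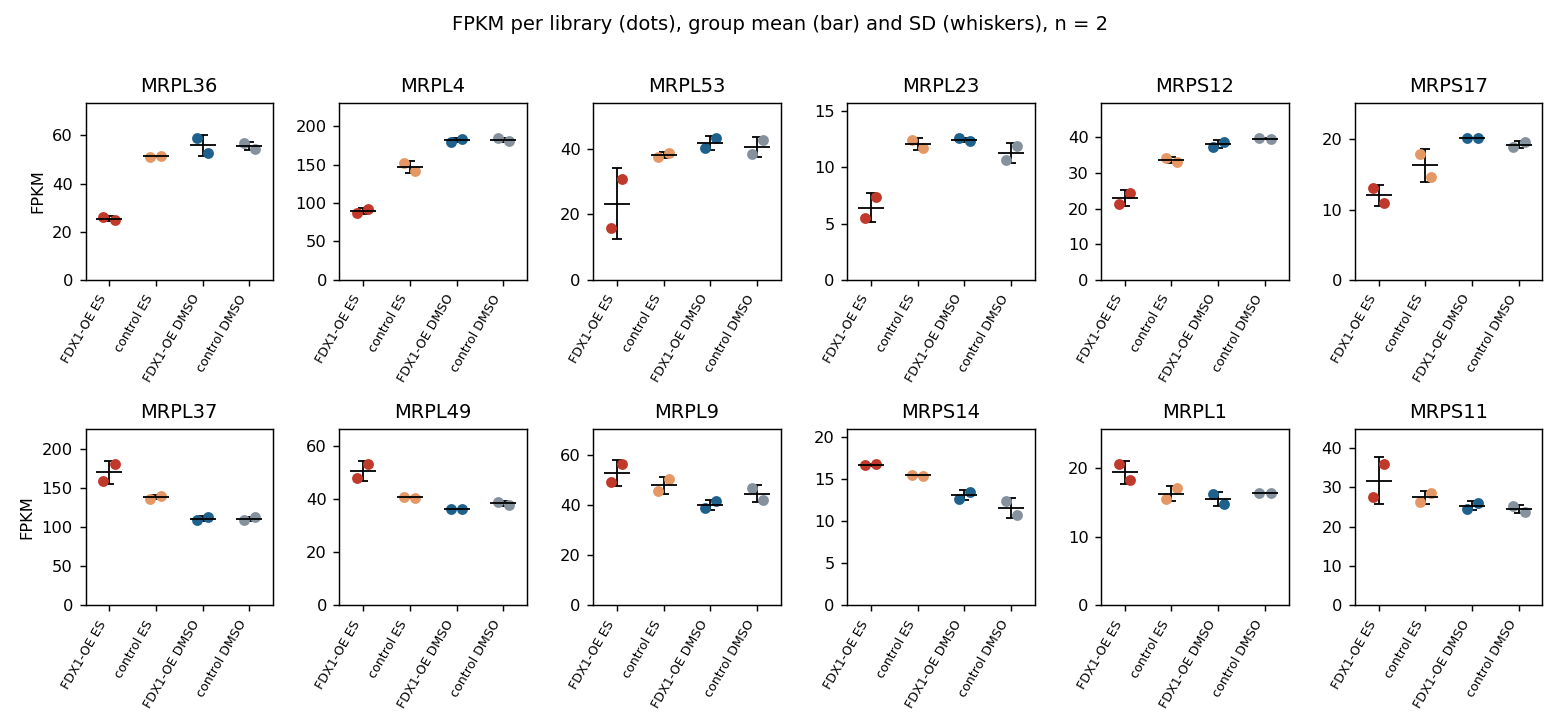
FPKM (linear axes from 0) in each of the 8 libraries for the 6 members with the largest called fall (top row) and the 6 with the largest called rise (bottom row) with ES in FDX1-OE cells, dots for libraries, bars for group means and whiskers for SD with n = 2. MRPL36 sits at 26.1 and 24.6 FPKM in FDX1-OE ES libraries, below the other 6 libraries, and MRPL53 has widely spread FDX1-OE ES libraries at 15.7 and 30.9 FPKM.

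Of the 8 named genes that fell, MRPL36, MRPL4, MRPL23, MRPS12, MRPS17, MRPS24 and MRPS21 kept their call under all 22 alternatives, as did MRPL37 among those that rose. Each gene's SE pools its spread over all 4 groups of 2 libraries, so it is the same in every comparison of 2 groups. FDX1-OE ES replicates differed more than those of the other groups, as described further on. In fits of only the groups compared, 30 members fell and 8 rose with ES in FDX1-OE cells (10.9% and 40.8% of all genes tested). In control cells 5 fell and 4 rose in such a fit (2.89% and 11%). In bulk RNA, fewer cells of a kind and less RNA per cell cannot be told apart. Exons of 41 of the 78 members overlap those of another gene in GENCODE release 29, among them MRPL37 (CYB5RL and SSBP3), MRPL49 (FAU and SYVN1), MRPS12 (SARS2), MRPL53 (CCDC142) and MRPL23 (MRPL23-AS1). Whether counting used the strand is not given, so reads of these partners may be included. With ES in FDX1-OE cells 14 of the 41 members fell and 6 rose (13.7% and 47.1% of all genes tested). Of the 37 without an overlap, such as MRPL36, MRPS21 and MRPS36, 18 fell and 6 rose.

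The summed FPKM of the members was 2842 and 2996 in FDX1-OE ES libraries, 3343 and 3328 in control ES libraries, 3375 and 3402 in FDX1-OE DMSO libraries, and 3421 and 3388 in control DMSO libraries. FDX1-OE ES libraries lay below all others, at a ratio of 0.861 to FDX1-OE DMSO libraries (exact two-sided permutation p = 0.333, the smallest that 2 against 2 libraries allow). As a share of all FPKM the members held 0.696% and 0.743% in FDX1-OE ES libraries and 0.744% to 0.759% in the other 6. Small subunit genes summed to 998 FPKM in each FDX1-OE ES library, against 1153 and 1175 FPKM in FDX1-OE DMSO libraries. Large subunit genes summed to 1837 and 1991 FPKM in FDX1-OE ES libraries, against 2209 and 2216 FPKM in FDX1-OE DMSO libraries. The ratios of the ES to the DMSO sums were 0.857 for the small and 0.865 for the large subunit, and no test compares them.

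Level and base composition moved with these changes. Across all genes tested the log2 fold change of ES in FDX1-OE cells was lower at higher levels, and 46 of the 78 members stood in the top 1 of 5 equal classes by level. In that class all genes had a median log2 fold change of -0.05, with 27.3% rising and 34.8% falling, and the 46 members had a median of -0.25, with 4 rising and 24 falling. In the next class the 26 members had a median of -0.04, against 0.20 for all genes there, and 8 rose and 6 fell (45.6% and 15.5% of all genes there).

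**Figure D3:**
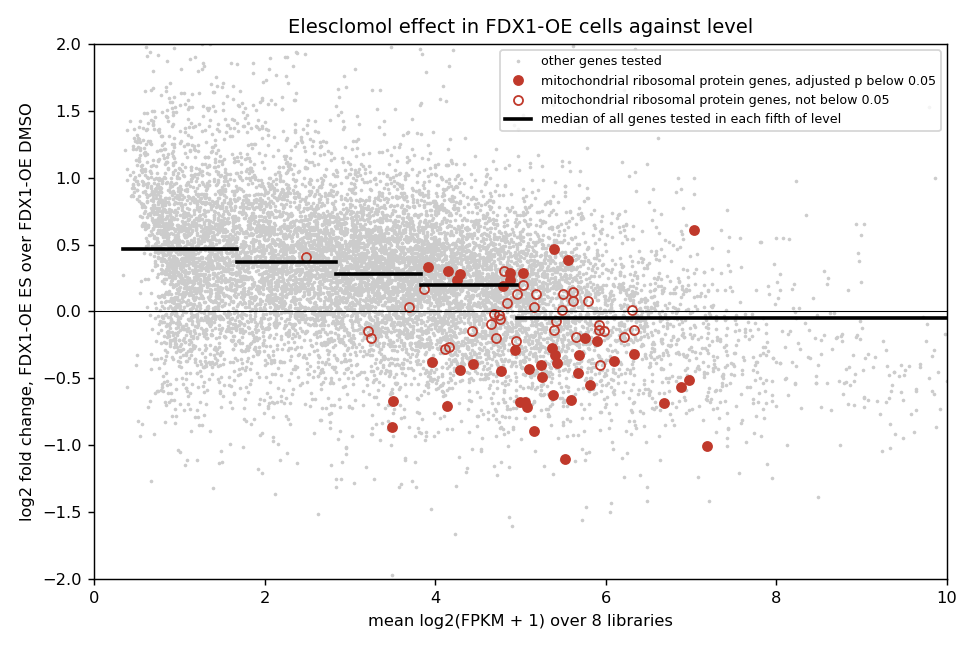
Each point is a gene, with mean log2(FPKM + 1) over 8 libraries on the x axis and the log2 fold change of FDX1-OE ES over FDX1-OE DMSO on the y axis; red marks the 78 members (filled where adjusted p was below 0.05) and black bars the median of all genes in each of 5 equal classes of level. The axes end at 10 and at -2 and 2, so a few other genes lie outside. Most members sit to the right, and 24 of the 46 in the top class fell.

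The 2 FDX1-OE ES libraries differed from each other more than replicates of the other groups did. The median absolute log2 difference between them was 0.16 over the members and 0.165 over all genes tested, against 0.0549 to 0.058 and 0.075 to 0.0876 in the other 3 groups. Genes with an MT- symbol held 16.7% and 13.3% of FPKM in FDX1-OE ES libraries, against 18.9% to 20.0% in the other 6, and the part of either difference in the results was not tested. The difference between replicates followed the GC share of the transcripts. Over 11774 genes with a transcript in GENCODE release 29, replicate 1 minus replicate 2 had a Pearson r of -0.55 with the GC share, where it was between -0.10 and 0.07 in the other 3 groups. Those genes share the same 2 libraries, so r only describes them. The members' own log2 fold change (ES over DMSO, FDX1-OE cells) also went down with GC share (Pearson r -0.43, Spearman rho -0.40 over 78 genes). Over all 11774 genes the same fold change had r -0.09 and rho -0.12. With the log of transcript length r was 0.33 over the members and 0.16 over all genes. The median transcript length was 1516 bases for members and 3023 for all genes, and the part of length was not tested. Of the 26 members with 34.96% to 45.6% GC, 5 fell and 4 rose. Of the 26 with 53.0% to 71.9% GC, 18 fell and 3 rose (13.7% and 47.1% of all genes tested, at any GC share). The members' median was -0.44 in this GC-rich range, beside 0.17 for all genes in it, and -0.07 in the GC-poor range, beside 0.30 for all genes in it. MRPL36, MRPL4, MRPS17 and MRPS21, at 65.2%, 64.9%, 47.3% and 48.6% GC, fell in replicate 1 and in replicate 2. MRPL38, at 64.6% GC, fell in replicate 1 only. The part of GC share in the members' changes was not tested. Set singly against the FDX1-OE DMSO mean, replicate 1 had a median of -0.15 over the members and replicate 2 one of -0.19, with 47 members below 0 in both, 18 above 0 in both and 13 of unlike sign. After the GC trend of each library was taken off, an alternative chosen after seeing the data, 38 members fell and 11 rose (15.1% and 49.9% of all genes tested).

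**Figure D4:**
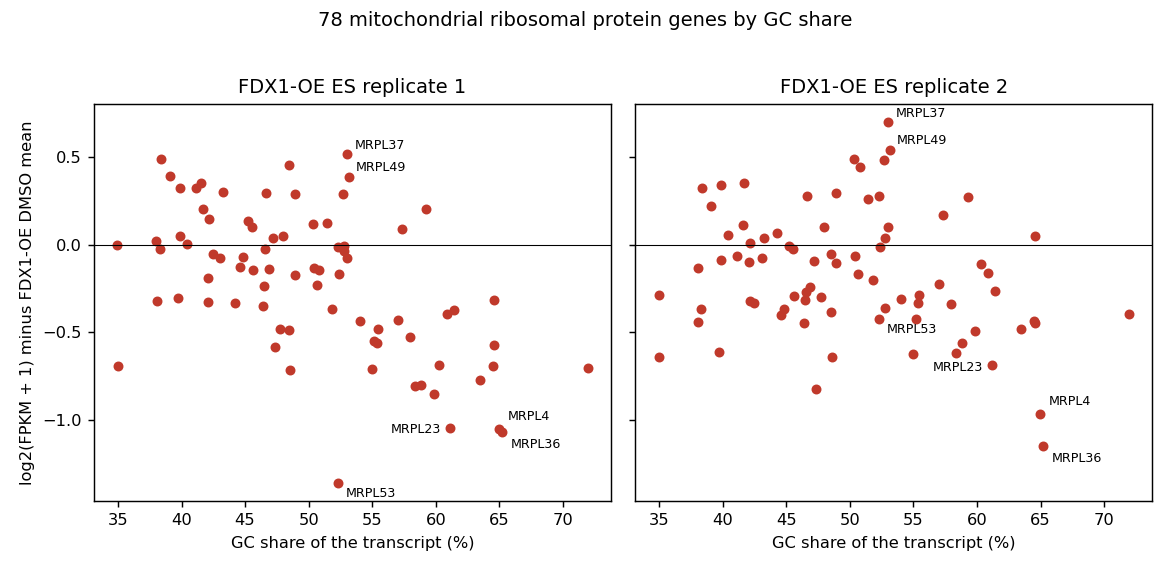
Log2(FPKM + 1) minus the FDX1-OE DMSO mean (y axis) against the GC share of the transcript in percent (x axis) for the 78 members, replicate 1 of the FDX1-OE ES group on the left and replicate 2 on the right. Points slope down more steeply in replicate 1, and MRPL36, MRPL4 and MRPL23 are low and MRPL37 and MRPL49 high in both.

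Under ES, FDX1-OE cells had lower levels than control cells for 28 of 78 members and higher levels for 4 (10.4% and 31.1% of all genes tested, 41.5% in either direction). The members' median log2 fold change was -0.15, beside 0.16 over all genes tested. Both FDX1-OE libraries lay below both control libraries in 40 members (18.5% of all genes tested) and above them in 13 (50.6%). On the median-ratio scale 43 were lower and 0 higher (18.6% and 14.7% of all genes tested), and with equal FPKM totals 18 were lower and 16 higher (6.09% and 48.7%). The members' median was -0.1442 without control ES replicate 1, beside 0.1345 over all genes tested. Without FDX1-OE ES replicate 2 it was -0.1264, beside 0.1566. These values share the FDX1-OE ES libraries with the comparison above and are no second measurement of them. In a fit of only these 2 groups, 17 members were lower and 0 higher (6.19% and 19.6% of all genes tested).

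The largest difference was again in MRPL36, at 26.1 and 24.6 FPKM in FDX1-OE ES libraries against 51.2 and 51.5 FPKM in control ES libraries (log2 fold change -0.99, SE 0.07, adjusted p = 0.000114). MRPL23 followed with 5.51 and 7.33 FPKM against 12.5 and 11.7 FPKM (-0.83, adjusted p = 0.00176), then MRPL53 with 15.7 and 30.9 FPKM against 37.6 and 38.8 FPKM (-0.76, adjusted p = 0.0354, above 0.05 in 8 of 22 alternatives). MRPL4 had 87.2 and 92.8 FPKM against 153 and 142 FPKM (-0.70, adjusted p = 0.00026). In all 4 genes both FDX1-OE libraries were below both control libraries. MRPS36, MRPL55, MRPS21 and MRPS26 followed, with log2 fold changes of -0.65 to -0.57. MRPL55, a large subunit protein, had 19.1 and 24.8 FPKM in FDX1-OE ES libraries, against 34.0 and 33.4 FPKM in control ES libraries. MRPS26, a small subunit protein without a bacterial counterpart, had 26.3 and 32.4 FPKM against 45.6 and 42.1 FPKM. The 4 genes called higher were MRPL49, with 47.7 and 53.2 FPKM against 40.8 and 40.5 FPKM (0.30), MRPL37, with 159 and 181 FPKM against 136 and 141 FPKM (0.29), MRPS10, with 35.6 and 30.02 FPKM against 26.6 and 26.9 FPKM (0.28), and MRPL45, with 33.4 and 33.0 FPKM against 26.8 and 27.8 FPKM (0.27). None of those 4 passed the threshold on the median-ratio scale, and of 22 alternatives MRPS10 lost its call in 10, MRPL49 in 4, and MRPL37 and MRPL45 in 3 each.

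In control cells few genes of any kind passed the threshold with ES. Against DMSO, 2 of 78 members fell and 2 rose (1.00% and 6.74% of all genes tested, 7.74% in either direction), with a median log2 fold change of -0.03, beside 0.09 over all genes tested. Both ES libraries lay below both DMSO libraries in 31 members (17.1% of all genes tested) and above them in 15 (48.2%). MRPL4 had 153 and 142 FPKM in control ES libraries, against 185 and 181 FPKM in control DMSO libraries, a fall of -0.31 (SE 0.06, adjusted p = 0.026). MRPS30, a large subunit protein despite its symbol, had 35.7 and 36.2 FPKM against 42.5 and 43.1 FPKM (-0.25, adjusted p = 0.0473). MRPS14 had 15.5 and 15.4 FPKM against 12.4 and 10.7 FPKM (0.40, adjusted p = 0.0319), and MRPL37 had 136 and 141 FPKM against 109 and 113 FPKM (0.32, adjusted p = 0.0352). None of these 4 genes had overlapping groups, but each was called in only 10 to 13 of 22 alternatives. With 1 library left out in turn, the members' median in control cells was between -0.0325 and -0.024.

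The effect of ES differed between FDX1-OE and control cells in 17 members. The difference (the ES effect in FDX1-OE cells minus that in control cells, tested as an interaction) was below 0 for 16 members and above 0 for 1 (5.06% and 13.9% of all genes tested, 19.0% in either direction). The median difference of the members was -0.13, beside 0.15 over all genes tested, and it became 0.0043 with equal FPKM totals, where 10 members were called below 0 and 7 above 0 (3.32% and 28.7% of all genes tested). On the median-ratio scale 26 were below and 0 above (9.49% and 5.77% of all genes tested). MRPL36 led with a difference of -0.997 (SE 0.10, adjusted p = 0.00168), made of -1.11 in FDX1-OE cells and -0.11 in control cells. MRPL23 followed at -0.96 (SE 0.17, adjusted p = 0.0106), made of -0.87 and 0.09. MRPL4 differed by -0.70 (SE 0.09, adjusted p = 0.00355), with a called fall in both cell populations, -1.01 in FDX1-OE cells and -0.31 in control cells. MRPL41, MRPS21, MRPL55, MRPS36 and MRPL24 differed by -0.67 to -0.60, each with a fall in FDX1-OE cells and an uncalled change in control cells. Of these, MRPL55 lost its call in 8, MRPL41 in 7, MRPS36 in 6, MRPL24 in 1 and MRPS21 in 0 of 21 alternatives, and MRPL23 lost its call in 1. MRPL49 was the 1 member above 0, at 0.38 (adjusted p = 0.0296), and it lost its call in 9 of 21 alternatives. With 1 library left out in turn, the median difference of the members was between -0.1452 and -0.1302. That of all genes tested was then between 0.1304 and 0.167.

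**Figure D5:**
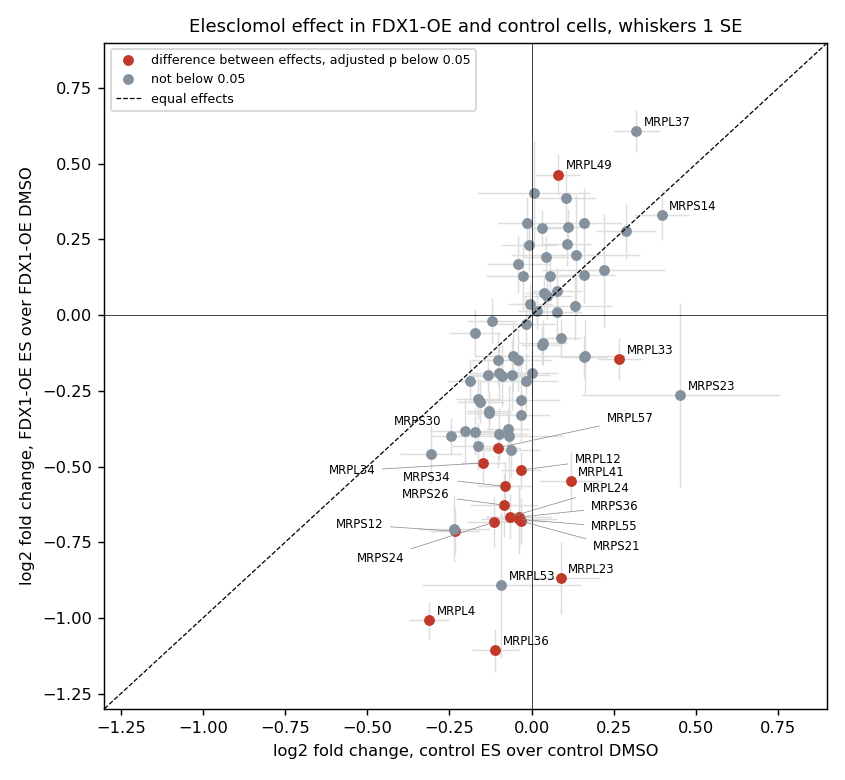
Log2 fold change of ES over DMSO in FDX1-OE cells (y axis) against that in control cells (x axis) for the 78 members, with whiskers of 1 SE and the dashed line marking equal effects. Red points are the 17 members whose difference had an adjusted p below 0.05: 16 lie below the line and MRPL49 lies above it.

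The 3 MRPS18 proteins, paralogues that trace back to 1 bacterial protein, were not called alike. MRPS18C had 12.8 and 11.7 FPKM with ES in FDX1-OE cells, against 17.9 and 14.8 FPKM with DMSO, a fall of -0.38 (SE 0.11, adjusted p = 0.0151). MRPS18A had 45.2 and 48.0 FPKM with ES, against 43.1 and 41.9 FPKM with DMSO, and MRPS18B had 45.8 and 47.3 FPKM against 46.6 and 45.6 FPKM. These last 2 genes were not called (adjusted p = 0.118 for MRPS18A and 0.858 for MRPS18B), and no test compares the 3 genes with each other.

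Some proteins of the mitochondrial ribosome carry other symbols. Of 5 such genes, 1 fell and 0 rose with ES in FDX1-OE cells (13.7% and 47.1% of all genes tested). The gene that fell was GADD45GIP1, a large subunit protein. It had 23.5 and 23.9 FPKM with ES against 31.9 and 31.6 FPKM with DMSO (log2 fold change -0.41, adjusted p = 6e-04). CHCHD1 (-0.23), AURKAIP1 (-0.19), DAP3 (-0.15) and PTCD3 (0.16) were not called. Under ES, 3 of the 5 were lower in FDX1-OE than in control cells and 0 higher (10.4% and 31.1% of all genes tested). These were GADD45GIP1 (-0.34, adjusted p = 0.0035), CHCHD1 (-0.33, adjusted p = 0.0247) and AURKAIP1 (-0.30, adjusted p = 0.0172). The ribosomal RNAs of mitochondria were measured too, although how ribosomal RNA was treated in the libraries is not given. MT-RNR2, the large subunit rRNA, had 2914 and 1895 FPKM with ES in FDX1-OE cells, against 4856 and 4794 FPKM with DMSO, and fell by 1.04 (SE 0.18, adjusted p = 0.00142). MT-RNR1, the small subunit rRNA, had 1160 and 777 FPKM against 1362 and 1337 FPKM and was not called (-0.51, adjusted p = 0.0759). Under ES both rRNAs were lower in FDX1-OE than in control cells, MT-RNR2 by 0.69 (adjusted p = 0.0164) and MT-RNR1 by 0.65 (adjusted p = 0.0456). Under DMSO both FDX1-OE libraries also lay below both control libraries for each rRNA (19.5% of all genes tested). Neither was called there (-0.16 for MT-RNR2 and -0.38 for MT-RNR1). The difference between the ES effects was not called for MT-RNR2 (-0.53, adjusted p = 0.166) or MT-RNR1 (-0.26, adjusted p = 0.57). In control cells MT-RNR2 had an uncalled -0.50 with ES. In both genes replicate 2 of FDX1-OE ES was the lowest library.

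Factors that assemble the ribosome or modify its RNA went both ways. Of 30 tested, 9 rose and 8 fell with ES in FDX1-OE cells (47.1% and 13.7% of all genes tested), with a median of -0.02, beside 0.25 over all genes tested. MRM1, an rRNA methyltransferase, had 7.25 and 7.68 FPKM with ES against 13.7 and 12.4 FPKM with DMSO (-0.73, adjusted p = 0.000322). MPV17L2 fell by 0.65 and C1QBP fell by 0.38, whereas TRMT2B, a methyltransferase for mitochondrial RNA, had 9.21 and 10.5 FPKM against 6.64 and 6.09 FPKM and rose by 0.56 (adjusted p = 0.001). In control cells 1 of the 30 rose with ES (METTL17, 0.31, adjusted p = 0.0352) and 1 fell (DDX28, -0.30, adjusted p = 0.0473). Of all genes tested 6.74% rose and 1.00% fell there.

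Translation factors were divided as well, with 4 of 17 rising and 6 falling with ES in FDX1-OE cells (47.1% and 13.7% of all genes tested). SLIRP, which stabilises mitochondrial mRNAs with its partner LRPPRC, had 50.9 and 47.0 FPKM with ES, against 93.7 and 89.8 FPKM with DMSO, and fell by 0.89 (SE 0.06, adjusted p = 2.35e-05). MTIF3, an initiation factor, had 18.3 and 17.97 FPKM against 10.8 and 12.1 FPKM and rose by 0.62 (adjusted p = 0.00204), and the initiation factor MTIF2 rose by 0.41 (adjusted p = 0.00144), as did C12orf65, a release factor, by 0.40 (adjusted p = 0.00242). The groups of SLIRP and MTIF3 did not overlap.

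Among 9 regulators tied to nuclear genes of mitochondria, 5 fell and 1 rose with ES in FDX1-OE cells (13.7% and 47.1% of all genes tested). MYC had 59.2 and 38.5 FPKM with ES, against 109 and 117 FPKM with DMSO, a fall of -1.22 (SE 0.17, adjusted p = 0.000518). ESRRA had 14.3 and 15.3 FPKM against 22.7 and 23.0 FPKM (-0.60, adjusted p = 0.000494), and PPRC1, a coactivator, had 21.6 and 20.5 FPKM against 28.4 and 27.8 FPKM (-0.40, adjusted p = 0.000963). GABPB2, a partner of GABPA, had 2.66 and 2.77 FPKM against 1.52 and 1.28 FPKM and rose by 0.63 (adjusted p = 0.00109). GABPA, NRF1 and YY1, whose words were searched, are given outside the rule for named genes and after their values were seen. GABPA had 13.5 and 11.2 FPKM with ES, against 15.3 and 14.6 FPKM with DMSO, and fell by 0.26 (adjusted p = 0.0371). NRF1 had 7.58 and 8.14 FPKM with ES, against 7.85 and 8.05 FPKM with DMSO, and was not called (-0.01, adjusted p = 0.879). YY1 had 26.8 and 25.5 FPKM with ES, against 26.8 and 26.3 FPKM with DMSO, and was not called (-0.02, adjusted p = 0.804). PPARGC1A was listed at 0 in every library.

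Beside the members, 69 of 77 cytosolic ribosomal proteins fell and 0 rose with ES in FDX1-OE cells (median log2 fold change -0.50). Genes of respiratory complex I were taken by symbol (NDUFA, NDUFB, NDUFC, NDUFS or NDUFV and a number), without a check of each protein's complex. NDUFAB1, counted among the assembly factors above, was not included. Of the 37 genes with such a symbol, 17 fell and 5 rose (median -0.22). Of all genes tested 13.7% fell and 47.1% rose (median 0.25). In the difference between the ES effects, 63 of the 77 cytosolic ribosomal proteins and 12 of the 37 genes with a complex I symbol were called below 0. None of either was called above 0, where 5.06% of all genes tested were below and 13.9% above 0. No test of the difference between these lists and the mitochondrial ribosomal proteins was run. The counts stand beside each other as descriptions of the same 8 libraries.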

How the data were processed

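Per the labels' protocols, TRIzol was used for extraction and a VAHTS Universal V6 kit for the libraries. The authors deposited 1 value per gene and library, taken as FPKM from the values, since no header names the unit. HISAT2, HTSeq, hg19 and R 3.2.0 appear in the submitters' processing notes without roles, so absolute depth, strand use and the tool behind the FPKM are not given in the sources used here. Promoters are from RefSeq (GRCh38.p14), transcripts from GENCODE release 29, matched by symbol only.

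Values were used as log2(FPKM + 1), a scale on which fold changes of low genes are understated. The 12063 genes reaching 1 FPKM in 2 or more libraries were tested with limma 3.58.1 under R 4.3.3: 4 group means on all 8 libraries, a mean-variance trend, 4 residual and 4.25 prior degrees of freedom, two-sided tests, Benjamini-Hochberg adjustment over all genes tested, called below 0.05. The code was tested on simulated data.

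The members, lists and tests were chosen with earlier results of these data known. Named genes were, per comparison, the called members with the largest changes, at most 8 in each direction, the 5 highest and 3 lowest by mean FPKM, the MRPS18 genes, and per list up to 4 genes with the smallest p. Alternatives were pseudocounts 0.1 and 5, no filter or 5 FPKM, 4 other scalings, array weights, no trend, only the groups compared, a replicate block, each library left out in turn and, chosen after seeing the data, a GC correction with and without the block.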

Additional observations from a re-analysis of the deposited data

Results flagged for a closer look

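The effect of ES differed between FDX1-OE and control cells, by limma's test of the difference itself (adjusted p below 0.05 over all genes tested), in 17 members. Of 78 members, 16 were called below 0 and 1 above 0. Among all genes tested 5.06% were called below 0 and 13.9% above 0, 19.0% in either direction. The values are the ES effect in FDX1-OE cells minus that in control cells on the log2(FPKM + 1) scale. The difference was -1.0 for MRPL36, -0.96 for MRPL23, -0.70 for MRPL4, -0.67 for MRPL41, -0.65 for MRPS21, -0.64 for MRPL55, -0.63 for MRPS36 and -0.60 for MRPL24. It was -0.57 for MRPS24, -0.54 for MRPS26, -0.48 for each of MRPS34, MRPS12 and MRPL12, -0.41 for MRPL33, and -0.34 for each of MRPL34 and MRPL57. For MRPL49 it was 0.38. MRPL33 stood apart among them, with an uncalled 0.27 in control cells (23.1 and 23.4 FPKM in ES libraries, 19.2 and 19.1 FPKM in DMSO libraries) and an uncalled -0.14 in FDX1-OE cells (18.4 and 19.7 FPKM in ES libraries, 21.7 and 20.5 FPKM in DMSO libraries).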

How the results depend on the processing

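Percentages in brackets are shares of all genes tested, in the order of the counts. On the median-ratio scale, under ES 0 members were higher and 43 lower in FDX1-OE than in control cells (14.7% and 18.6%, median -0.3144). With ES against DMSO 1 rose and 57 fell in FDX1-OE cells (24.9% and 27.5%, median -0.4633). In control cells 0 rose and 6 fell (3.67% and 3.34%, median -0.145). The difference between the ES effects was above 0 in 0 and below 0 in 26 (5.77% and 9.49%, median -0.2935). With equal FPKM totals 16 were higher and 18 lower in FDX1-OE than in control cells under ES (48.7% and 6.09%, median -0.0168). With ES in FDX1-OE cells 21 rose and 26 fell (58.8% and 9.02%, median -0.0506). The difference was above 0 in 7 and below 0 in 10 (28.7% and 3.32%), and its median of 0.0043 was a change of sign. With totals equal over genes other than MT- genes, 9 were higher and 26 lower in FDX1-OE cells under ES (39.4% and 8.33%). In control cells 2 rose and 1 fell with ES (6.75% and 1.02%), and 3 differences were above and 14 below 0 (20.2% and 4.29%). Quantile normalisation gave 5 that rose and 40 that fell with ES in FDX1-OE cells (23.1% and 24.3%). It gave 0 that rose and 0 that fell in control cells (1.43% and 0.489%), and 2 differences above and 17 below 0 (5.69% and 5.92%, median -0.2204).

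Fitting only the groups compared gave 0 higher and 17 lower for FDX1-OE against control cells under ES (19.6% and 6.19%). It gave 4 that rose and 5 that fell with ES in control cells (11% and 2.89%). For ES in control cells, array weights gave 4 and 5 (17.1% and 3.82%) and no trend 1 and 0 (6.57% and 0.531%). No filter gave 0 and 0 there (0.168% and 0.035%), and a pseudocount of 5 left 2 that rose and 1 that fell (4.1% and 0.763%). Array weights left 7 that rose and 31 that fell with ES in FDX1-OE cells (38.7% and 11.1%). For the difference, no filter left 1 above and 7 below 0 (3.6% and 1.08%), and no trend left 0 above and 13 below 0 (14.1% and 3.96%). The GC correction gave 2 that rose and 4 that fell with ES in control cells (12.7% and 2.3%). It gave 3 differences above and 20 below 0 (20.2% and 6.93%). Apart from the construction of each alternative, the cause of these changes was not tested.

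Replicate numbers are shared between groups but pair nothing in the labels, and replicate differences correlated by -0.050 to 0.079 between groups over 12063 genes. With the replicate block 0 members were higher and 0 lower in FDX1-OE cells under DMSO (0.00829% and 0%), and 4 and 27 under ES (30% and 10.2%). With ES 2 rose and 1 fell in control cells (5.2% and 0.647%), and 10 rose and 32 fell in FDX1-OE cells (46.5% and 13.5%). The difference was above 0 in 1 and below 0 in 13 (11.4% and 4.57%). With GC correction and block together 2 rose and 4 fell in control cells (11.2% and 2.07%), and 2 differences were above and 19 below 0 (18.5% and 6.53%).

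Each library was also left out in turn, with the lone library of a group then assumed to vary like the others. The members' median for FDX1-OE against control cells was then -0.014 to -6e-04 under DMSO and -0.158 to -0.126 under ES. For ES against DMSO the median was -0.0325 to -0.024 in control cells and -0.2035 to -0.1463 in FDX1-OE cells. For the difference between the ES effects it was -0.1452 to -0.1302. Of the values of named members under the alternatives, none changed direction. With 2 libraries a group and unknown depth, small changes of single members could go uncalled.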

Other observations

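MRPS23, a small subunit protein, had 20.4 and 8.56 FPKM in the 2 control DMSO libraries, while the other 6 libraries lay between 15.0 and 20.4 FPKM. It was not called in any comparison, with an SE of 0.30 for each difference between 2 groups.

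Of 76 rows named as pseudogenes of the members, 3 passed the filter. MRPL45P2 had 2.05 and 3.63 FPKM in FDX1-OE ES libraries and between 0.646 and 2.96 FPKM in the others. MRPS31P4 stood between 3.81 and 6.54 FPKM and MRPS31P5 between 1.71 and 2.87 FPKM over all 8 libraries. MRPL45 itself stood between 26.4 and 33.4 FPKM and MRPS31 between 35.7 and 60.1 FPKM. How the authors assigned reads shared with such copies is not given, so MRPL45 and MRPS31 are uncertain to that extent.

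The ETS core was in 10 of 26 windows of members that fell with ES in FDX1-OE cells (38.5%), in 4 of 12 of those that rose (33.3%) and in 15 of 31 of those not called (48.4%). The YY1 word was in 6 of 26 (23.1%), 3 of 12 (25%) and 14 of 31 (45.2%). In the same order, CCAAT was in 10 (38.5%), 1 (8.33%) and 9 (29%), the E-box in 2 (7.69%), 3 (25%) and 1 (3.23%), the NRF1 word in 4 (15.4%), 0 (0%) and 3 (9.68%), and the TATA word in 0 (0%), 0 (0%) and 2 (6.45%). No test was run on these counts.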
